A study of Mus musculus with 41 samples.

Results

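The genes described here encode nuclear subunits of complexes I, II and III of the mitochondrial respiratory chain, measured in mouse mammary tumors. The members were all rows of the gene table whose symbol is Nduf with the letter a, b, c, s, v or ab and a number, Sdha to Sdhd, or a symbol that starts with Uqcr, which gave 49 of 47480 symbols. The rule reads symbols and no measured value, but it was chosen with earlier results of these data known. Of the 49 symbols, 36 belong to complex I, 4 to complex II and 8 to complex III. The remaining symbol, Ndufa4, carries a complex I name, but its product is now placed in complex IV (cytochrome c oxidase). It matched the naming rule and is described apart. Ndufb1 and the subunits encoded by mitochondrial DNA were not analysed here.

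RNA was sequenced from 41 tumors, with 1 library per tumor. They were 28 tumors null for both Plk2 and p53 (Plk2-/-; p53-/-, labelled PLK2null) and 13 tumors null for p53 (p53-/-, labelled p53null), all in the Balb/c background. The loss of p53 is shared by every tumor. Per the labels, tumor was injected at the orthotopic site of syngeneic hosts and grew untreated, and ages are not given. The sample labels do not say which tumors share a founder, so p-values measure the spread between these libraries, some of which may be related. Each library is bulk tumor, in which fewer cells of a type and less RNA per cell cannot be told apart.

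The respiratory chain passes electrons from fuel molecules to oxygen and stores the energy as a proton gradient across the inner mitochondrial membrane. Complex I oxidizes NADH and complex II oxidizes succinate, and both hand electrons to coenzyme Q. Complex III passes them on to cytochrome c. Complexes I and III pump protons or release them across the membrane and complex II does not. Complex II is also an enzyme of the citric acid cycle. Complexes I and III are assembled from subunits of both genomes, whereas all subunits of complex II come from nuclear genes. The subunits of a complex are needed in fixed proportions, and a catalytic core shared with bacteria is surrounded in mammals by accessory subunits that help assembly and stability.

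The values are estimated gene counts after upper-quartile normalization. In every tumor the 75th percentile of values above 0 was 1000. The smallest step between low values gave the worth of a single fragment, and from it a depth of about 31900000 to 53200000 fragments in the PLK2null tumors and 29400000 to 70900000 in the p53null tumors. A count of 3 fragments was worth 1.16 to 2.45 in these units, whereas the lowest value of any member in any tumor was 159 (Ndufc1 in PLK2null-1988). All 49 members passed the filter of a mean of at least 10. Plk2 itself ranged from 36.6 to 553 in the PLK2null tumors and from 186 to 8028 in the p53null tumors. Its lowest p53null value was that of the library labelled p53null-7435, so counts were also made without this library. The titles of all 13 p53null libraries, and of no PLK2null library, carry the tag ROSEN with a number, whose meaning the labels do not give. What the tag stands for and genotype cannot be told apart in any comparison between the genotypes.

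Levels of different genes were compared per kilobase of transcript, using the median over the 41 tumors. Ndufa4 had the highest level, 8359 per kb, followed by the complex III genes Uqcrh (7757 per kb), the hinge protein that helps cytochrome c1 meet cytochrome c, and Uqcrc1 (6870 per kb), a core protein of the matrix side. The lowest levels were those of Ndufc1 (941 per kb), Ndufb2 (490 per kb) and Ndufb4 (370 per kb), accessory subunits of the membrane arm of complex I. These levels differ between genes of 1 complex, in which most subunits are present in equal numbers. They rest on the length used, the median over a gene's annotated protein-coding transcripts, whether or not those are the ones expressed. The length used for Ndufb2, 2413 bases, was the longest of any member, and its low rank depends on it.

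To compare tumors, the median over the members of log2(value + 1), each gene centred on its median over the 41 tumors, was taken in each tumor. This level ranged from -0.56 to 0.33 in the PLK2null tumors (median, -0.19) and from -0.04 to 0.96 in the p53null tumors (median, 0.59). The groups overlapped. Of the 28 PLK2null tumors, 19 lay below the lowest p53null tumor, p53null-10155, and 9 of the 13 p53null tumors lay above the highest PLK2null tumor, PLK2null-1970. The 4 lowest tumors were PLK2null-1987 (-0.56), PLK2null-1988 (-0.54), PLK2null-7753 (-0.53) and PLK2null-1989 (-0.50). Whether these 4 share a founder is not given by the labels. In PLK2null-1987, 46 of the 49 genes were below their own median over all tumors. In p53null-2208L and p53null-2331L, 1 gene was. Complex II differed from complex I in some tumors, in both directions. In PLK2null-1980 the complex II level was -0.62 against -0.19 for complex I, and in PLK2null-7748 it was 0.48 against 0.01. In p53null-5329 it was 0.06 against 0.63.

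**Figure D1:**
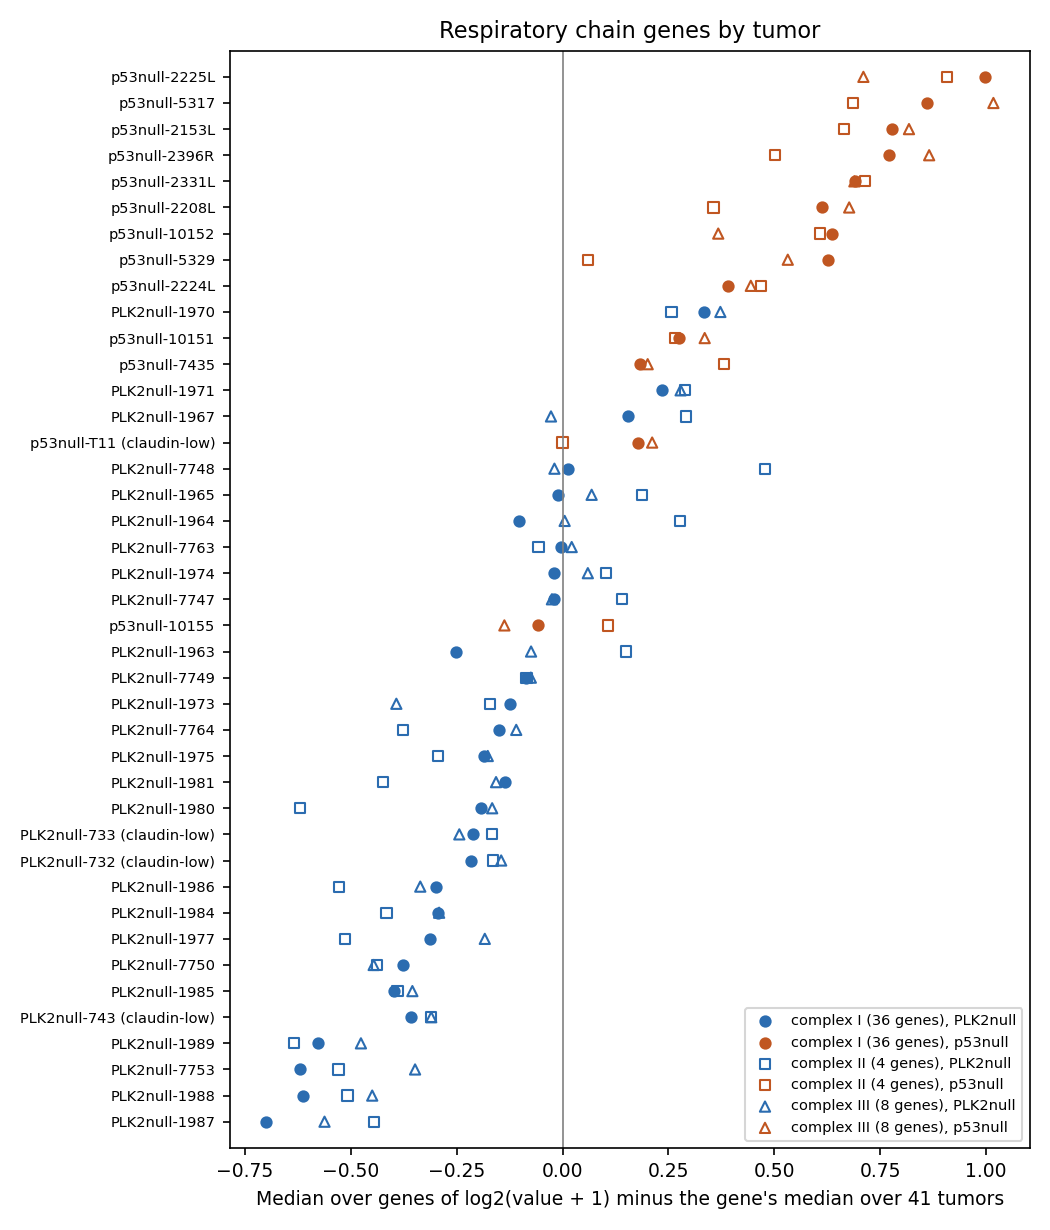
Respiratory chain level of each of the 41 tumors, sorted by the median over all 49 members. The horizontal axis is the median over the genes of a complex of log2(value + 1) minus the gene's median over the 41 tumors. Filled circles are complex I, squares complex II and triangles complex III, in blue for PLK2null and orange for p53null tumors. The 9 highest tumors are p53null, and the median over all members runs from -0.56 in PLK2null-1987 to 0.96 in p53null-2225L.

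The first comparison asked how tumors that lack Plk2 and p53 differ from tumors that lack p53. Respiratory chain genes were lower in the PLK2null tumors, in all of the 3 complexes and in both the catalytic and the accessory parts. In a limma fit to log2(value + 1), with p-values adjusted (Benjamini-Hochberg) over the 17208 genes tested, 41 of the 49 members fell, and 15.3% of all genes did. No member rose, with 0 members higher at an unadjusted p below 0.05, and 24.3% of all genes rose. In either direction 39.5% of all genes passed. The median difference (PLK2null minus p53null) was -0.67 over the members and 0.10 over all genes tested, and 48 of the 49 differences were negative. At least a 2-fold difference was estimated for 9 members. For none of the 49 did the groups separate completely, as they did for 1.35% of all genes tested. Rescaling by TMM moved the median of all genes by -0.13 and changed the division of all called genes from 4175 higher and 2627 lower to 3285 higher and 3628 lower, and 45 members then fell. Quantile normalization moved it by -0.10, gave 3425 higher and 3325 lower, and 43 members fell.

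**Figure D2:**
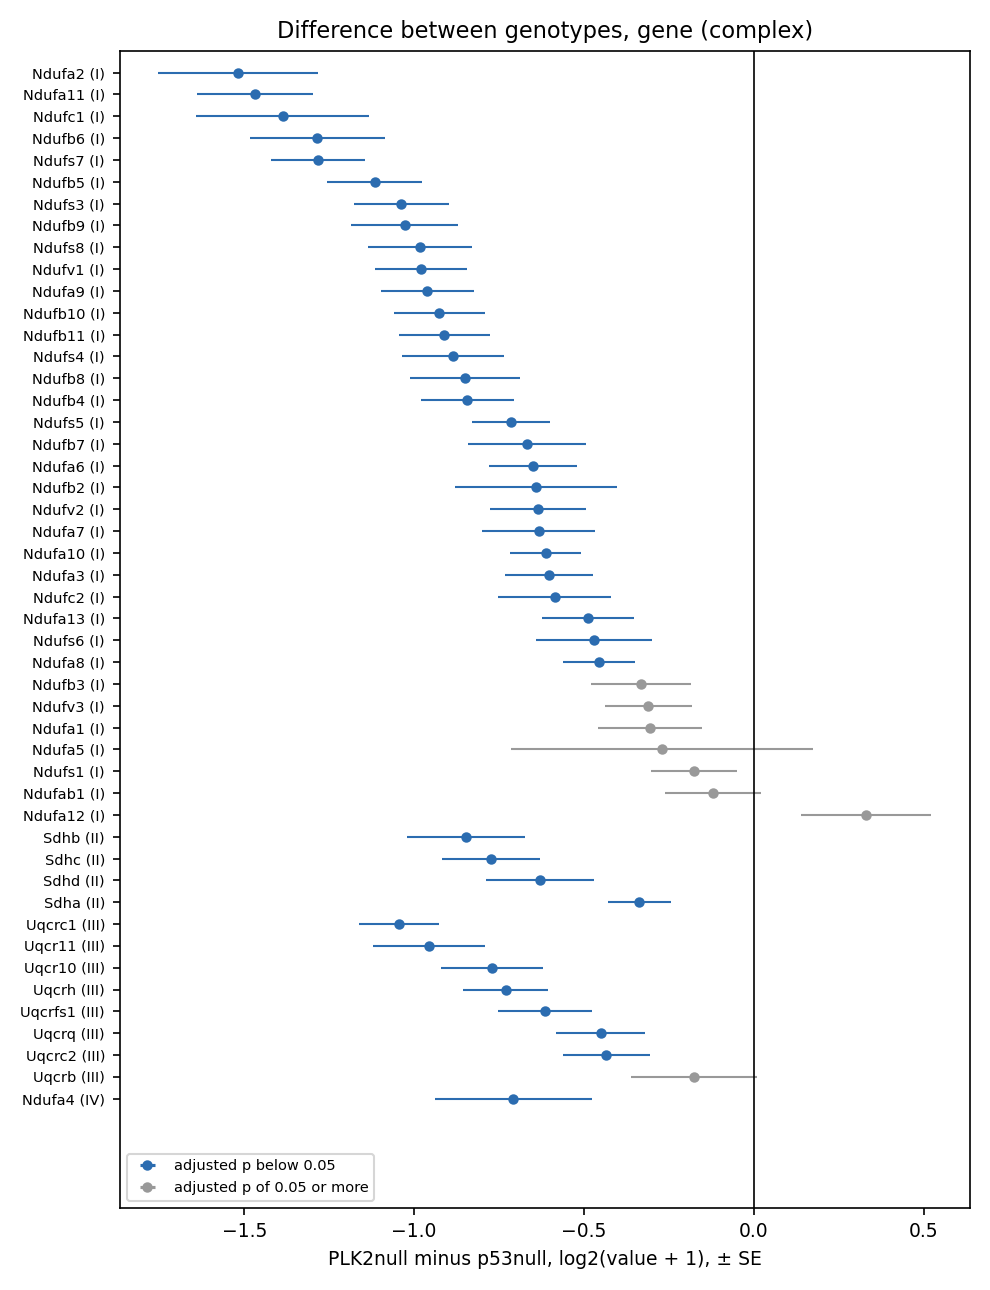
Difference between PLK2null (n = 28) and p53null (n = 13) tumors for 48 of the 49 members, grouped by complex. The horizontal axis is the estimated difference in log2(value + 1), and bars are standard errors. Blue points passed an adjusted p of 0.05 and grey points did not. The 40 blue points all lie below 0, and Ndufa12, at 0.33, is the single point above it.

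In complex I, 29 of 36 subunits fell. Of the 7 core subunits that carry the flavin, the iron-sulfur clusters and the quinone site, 6 fell. Ndufs7, a core subunit beside the quinone site, lies on chromosome 10 from 80249121 to 80256794 (GRCm38, plus strand). Its lowest, median and highest values were 636, 839 and 1417 in the PLK2null tumors and 1057, 2401 and 3880 in the p53null tumors. Of 28 PLK2null tumors, 21 were below every p53null tumor, and 11 of 13 p53null tumors were above every PLK2null tumor. The difference was -1.28 ± 0.14 (SE, limma adjusted p = 5.4e-10), or 2.43-fold. Ndufs3, a core subunit of the matrix arm, had 808, 1244 and 2413 in the PLK2null and 1680, 2727 and 4120 in the p53null tumors, a difference of -1.04 ± 0.14 (SE). Ndufs8, which binds iron-sulfur clusters, and Ndufv1, which binds NADH and the flavin, each differed by -0.98. Ndufv2 differed by -0.63. Ndufs1, the largest subunit of the complex, ranged from 1690 to 4272 in the PLK2null and from 1845 to 5346 in the p53null tumors, and its difference of -0.18 did not pass (95% confidence interval, -0.43 to 0.08).

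Among the accessory subunits of the matrix arm, 6 of 9 fell. Ndufa2 had the largest difference of all members. Its lowest, median and highest values were 653, 1233 and 3870 in the PLK2null tumors and 1800, 3888 and 7003 in the p53null tumors. The difference was -1.52 ± 0.24 (SE, limma adjusted p = 1.5e-06), and the groups overlapped, with 18 PLK2null tumors below and 7 p53null tumors above the range of the other genotype. Ndufs4, an assembly subunit whose loss causes Leigh-like disease in mice, differed by -0.89 and Ndufa9 by -0.96. Ndufa6 (-0.65), Ndufa7 (-0.63) and Ndufs6 (-0.47) also fell. Ndufv3, Ndufa5 and Ndufa12 did not pass. Ndufa12 was the one member with a positive difference, 0.33, with an interval from -0.06 to 0.72.

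Of 19 accessory subunits of the membrane arm, 17 fell. Ndufa11, on chromosome 17 from 56717767 to 56722141 (GRCm38, plus strand), had lowest, median and highest values of 515, 1013 and 1878 in the PLK2null and 1227, 2872 and 5684 in the p53null tumors. Its difference was -1.47 ± 0.17 (SE, limma adjusted p = 4.3e-09). Ndufc1 followed with 159, 572 and 1157 against 766, 1169 and 1818, a difference of -1.39 ± 0.26 (SE). Ndufb6 had 340, 741 and 1080 against 941, 1405 and 4993, and 12 of 13 p53null tumors were above every PLK2null tumor. The next was Ndufb5, at -1.12. The other 13 that fell lay between -1.03 (Ndufb9) and -0.45 (Ndufa8), and Ndufb9 was below every p53null tumor in 23 PLK2null tumors but reached its highest value of all, 7115, in PLK2null-7763. Ndufb3 and Ndufa1 did not pass, at -0.33 and -0.31. Ndufab1, the acyl carrier protein that also serves mitochondrial fatty acid synthesis, differed by -0.12 (interval, -0.40 to 0.17).

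All 4 subunits of complex II fell. Sdha and Sdhb form the catalytic head, in which Sdha holds the flavin and Sdhb the iron-sulfur clusters, and Sdhc and Sdhd anchor it in the membrane. Sdhb had lowest, median and highest values of 904, 1495 and 2994 in the PLK2null and 1736, 2878 and 4274 in the p53null tumors, a difference of -0.85 ± 0.17 (SE, limma adjusted p = 0.00012). Sdhc had 1506, 2282 and 3647 against 2442, 4095 and 12477, a difference of -0.77 ± 0.14 (SE). Sdhd had 1385, 2034 and 4303 against 1777, 3521 and 5235, a difference of -0.63 ± 0.16 (SE). Sdha had 3001, 3848 and 6422 against 3814, 4898 and 6450. Its difference, -0.34 ± 0.09 (SE, limma adjusted p = 0.0031), was the smallest of the members that passed. In each of the 4 genes the groups overlapped.

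In complex III, 7 of 8 subunits fell. Uqcrc1, on chromosome 9 from 108936633 to 108949623 (GRCm38, plus strand), had 2506, 3357 and 5742 in the PLK2null tumors and 4496, 7352 and 10229 in the p53null tumors. Of 28 PLK2null tumors 25 lay below every p53null tumor, the most of any member, and the groups overlapped. Its difference was -1.04 ± 0.12 (SE, limma adjusted p = 1.9e-09). Uqcr11, a small membrane subunit, differed by -0.96 ± 0.16 (SE) and Uqcr10, another, by -0.77 ± 0.15 (SE). Uqcrfs1, the Rieske iron-sulfur protein that takes electrons from coenzyme Q, differed by -0.61. Uqcrh (-0.73), Uqcrq (-0.45) and Uqcrc2 (-0.43), a partner of Uqcrc1, fell too. Uqcrb, a subunit near the quinone sites, ranged from 1473 to 5365 against 1798 to 4901 and did not pass, at -0.18 (interval, -0.55 to 0.20). Ndufa4 fell by 0.71 on the log2 scale, with 1461, 3416 and 19825 in the PLK2null and 3048, 5477 and 10779 in the p53null tumors.

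Other gene lists were read beside the members, here and in the next paragraph. Of all genes tested, 15.3% fell and 24.3% rose in the same fit. All 15 subunits of complex V (ATP synthase) fell, with a median of -0.84, led by Atp5e (-2.23) and Atp5k (-1.33). Of 11 complex IV subunits, Ndufa4 included, 10 fell, led by Cox5a (-0.96) and Cox4i1 (-0.95). Cyc1, the cytochrome c1 of complex III that the naming rule leaves out, fell by 0.99 on the log2 scale, and Cycs (cytochrome c) differed by -0.18 and did not pass. Assembly factors of complex I fell in 7 of 13 genes, led by Ndufaf3 (-0.88) and Ndufaf5 (-0.87), and those of complex II in 3 of 4, led by Sdhaf4 (-0.85) and Sdhaf1 (-0.83). Of 6 complex III assembly factors 4 fell, led by Uqcc2 (-1.27) and Uqcc3 (-0.83), and Ttc19 rose (0.59).

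Among 13 citric acid cycle enzymes, 5 fell, led by Fh1 (-0.75), fumarase, which uses the product of complex II, and Suclg1 (-0.73), and the other 8 did not pass. In coenzyme Q synthesis 5 of 11 genes fell, led by Pdss2 (-0.88) and Coq6 (-0.79), and Pdss1 rose (0.42). Of 11 genes of the outer membrane, of protein import or used as markers of mitochondrial mass, 6 fell. They were led by Vdac3 (-0.59), an outer membrane channel, and Phb2 (-0.57), a prohibitin. Among 6 tested paralogs and tissue isoforms of respiratory chain subunits 3 fell, led by Cox6b2 (-2.07), known from testis, and Cox7a1 (-2.05), known from heart and muscle. Of 77 mitochondrial ribosomal proteins, 49 fell and 1 rose. Proteins outside the mitochondrion were read as well. Of 76 cytosolic ribosomal proteins 71 fell, with a median of -0.91, and of 38 proteasome subunits 24 fell, with a median of -0.36.

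Of 12 regulators of respiratory chain genes, 4 rose and 1 fell, beside 24.3% and 15.3% of all genes. Pprc1, a coactivator related to Ppargc1a, rose by 0.44 and Gabpa, the DNA-binding part of the ETS factor GABP, by 0.37. Esrra, the estrogen-related receptor alpha, was the gene that fell, by 0.82 on the log2 scale. Nrf1, nuclear respiratory factor 1, differed by -0.04, Ppargc1a by 0.02 and Tfam, which packages mitochondrial DNA, by -0.19, and none of these passed.

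Promoters were examined because NRF1 and GABP are known to bind those of many respiratory chain genes. RefSeq sequences (GRCm38.p6) were at hand for 41 of the 49 members. In the 250 bases before the gene start, an NRF1-type motif, which is GCGC, any 2 bases and GCGC again, stood on either strand in 10 of 41 members (24.4%) and in 5.64% of 27025 genes with a promoter. The ETS-type motif CCGGAA stood in 12 of 41 members (29.3%) and in 13.6% of all genes. The motifs do not contain each other, and 21 of 41 members held at least 1 of them, beside 17.7% of the 27025 genes. Of 35 members with a promoter that fell, 8 held the first and 11 the second. A match of letters is a description and not a binding site. The following are the 250 upstream bases of the member with the largest fall for each motif and of Sdhd, the one member that held both, in gene orientation and with the motifs in capitals.
Ndufa11: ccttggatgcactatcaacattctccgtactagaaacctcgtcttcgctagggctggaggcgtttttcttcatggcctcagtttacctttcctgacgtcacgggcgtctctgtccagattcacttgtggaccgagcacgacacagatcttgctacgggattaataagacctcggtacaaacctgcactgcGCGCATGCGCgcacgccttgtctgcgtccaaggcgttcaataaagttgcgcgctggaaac
Ndufb6: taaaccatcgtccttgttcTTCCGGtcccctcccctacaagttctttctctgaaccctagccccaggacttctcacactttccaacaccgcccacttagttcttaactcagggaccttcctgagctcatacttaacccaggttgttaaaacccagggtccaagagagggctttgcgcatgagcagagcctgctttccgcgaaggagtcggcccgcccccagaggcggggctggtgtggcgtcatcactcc
Sdhd: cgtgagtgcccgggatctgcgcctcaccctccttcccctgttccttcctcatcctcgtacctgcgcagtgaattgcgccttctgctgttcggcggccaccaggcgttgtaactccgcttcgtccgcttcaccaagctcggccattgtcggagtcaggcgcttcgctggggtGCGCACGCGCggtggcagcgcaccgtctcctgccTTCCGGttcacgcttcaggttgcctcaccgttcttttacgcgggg
The sequences lie at chr17:56717512-56717761 (plus strand) for Ndufa11, chr4:40279422-40279671 (minus strand) for Ndufb6 and chr9:50603850-50604099 (minus strand) for Sdhd. The motif starts 60 bases before the gene in Ndufa11 and 231 bases before it in Ndufb6. In Sdhd the NRF1-type motif starts 79 and the ETS-type motif 45 bases before the gene.

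Differences between the genotypes moved with transcript length over all genes. With genes divided into eighths by length, the median difference was -0.18 in the shortest eighth (up to 778 bases) and 0.45 in the longest. The members are short, with a median of 704 bases against 2048 over the tested genes with a known length. Of the 26 members in the shortest eighth, 20 fell, beside 31.3% of all genes of that eighth. In the next eighth, up to 1166 bases, 12 of 14 members fell, beside 28.7% of all its genes. All 9 longer members fell as well. The same trend was seen with GC content, with a median of 0.36 in the eighth of lowest and -0.16 in the eighth of highest GC content. After each tumor was corrected for length and GC content, 38 of 49 members fell, with a median of -0.59 beside -0.05 over all genes, and 67 of 76 cytosolic ribosomal proteins. Of all 16600 genes with a length and GC content, 3204 fell (19.3%) and 2733 rose, beside 2627 and 4175 of 17208 before the correction. Ndufa13, Ndufb7 and Ndufs6 were among the members that no longer passed, and Ndufb3 passed. This correction was chosen after seeing the data.

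**Figure D3:**
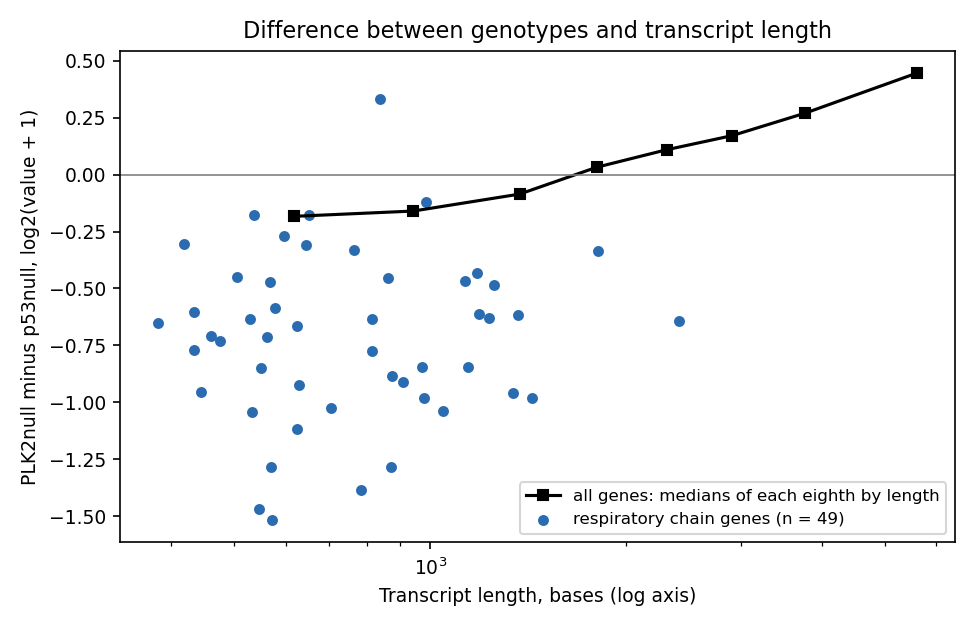
Difference between genotypes against transcript length for the 49 members and for all genes. The horizontal axis is the median length of a gene's protein-coding transcripts in bases (log axis) and the vertical axis the difference, PLK2null minus p53null, in log2(value + 1). Black squares are the medians of eighths of all genes by length, from -0.18 to 0.45. Of the 49 blue points, most lie below the black line.

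Markers of other cell types were read with the members, beside the 15.3% of all genes that fell and the 24.3% that rose. Of 6 skeletal muscle genes 4 were lower in the PLK2null tumors, and their summed value ranged from 18.5 to 3109 in the PLK2null and from 38.1 to 39282 in the p53null tumors. The highest sums were those of p53null-2153L (39282), p53null-7435 (26772) and PLK2null-7764 (3109). Without these 3 libraries 40 of 49 members fell, and Ndufs6 no longer passed (limma adjusted p = 0.062). The share of all genes that fell without them is not given here. Of 5 tested white adipocyte genes 2 were lower, with sums of 227 to 124741 against 423 to 3748, and of 5 tested red blood cell genes 2 were lower, with sums of 491 to 351849 against 3140 to 45104. The upper ends of both belong to the 3 claudin-low PLK2null tumors, and the other 25 reached 52149 and 21535. Their part in the result was not tested. Of 6 epithelial and 6 fibroblast genes none passed in limma, with 1 of each at an unadjusted p below 0.05, and of 6 endothelial, 6 T cell and 6 B cell genes none passed at either level. Levels were not thereby equal. All 6 epithelial differences were negative (median, -0.92), as were 5 of 6 fibroblast differences (median, -0.73). Of the endothelial differences 5 of 6 were positive (median, 0.64), and the medians were -0.05 for T cell and 0.64 for B cell genes. Of the rest, 1 of 6 macrophage genes rose. Of 6 proliferation genes 1 rose. Of 4 tested brown adipocyte genes 1 rose and 1 fell.

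A set of 7 PLK2null tumors bears tumor numbers listed elsewhere as primary (PLK2null-7747, PLK2null-7748, PLK2null-7749, PLK2null-7750, PLK2null-7753, PLK2null-7763 and PLK2null-7764). The labels do not call any tumor primary and describe all as injected. With these 7 as the PLK2null group, 31 of 49 members fell and none rose, while 5.69% of all genes tested fell. The median difference of the members was -0.69, beside -0.67 with all 28 tumors. Without the claudin-low tumors of both genotypes 42 members fell, and without the library labelled p53null-7435 also 42. The shares of all genes that fell in these settings are not given here.

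The second comparison was between PLK2null-732, PLK2null-733 and PLK2null-743, which are claudin-low, and the other 25 PLK2null tumors. Claudin-low is a mammary tumor subtype with mesenchymal features and little expression of tight junction genes. The study's text names PLK2null-743 and T11 as such, PLK2null-732 and PLK2null-733 were included by the definition used for this comparison, and GEO's labels give it for none of them. Few respiratory chain genes passed here. In limma with adjustment over 17153 genes, 4 of the 49 members were lower and 1 was higher, while 17.1% of all genes were lower, 20.2% higher and 37.3% either. The median difference (claudin-low minus other) was -0.11 over the members and 0.02 over all genes. For 3 members the groups separated completely, as they did for 20% of all genes.

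The members that fell were Ndufa4, Ndufs6, Uqcr11 and Ndufb3. Ndufs6, a matrix arm subunit that binds zinc, had values of 771, 751 and 629 in PLK2null-732, PLK2null-733 and PLK2null-743, in which order the values of other genes follow. The other 25 tumors had a lowest, median and highest value of 955, 1595 and 2513, so that all 3 claudin-low tumors were below every other tumor. The difference was -1.15 ± 0.23 (SE, limma adjusted p = 0.00019). Uqcr11 was 855, 705 and 923 against 989, 1611 and 2334, again without overlap, a difference of -0.95 ± 0.20 (SE, limma adjusted p = 0.00046). Ndufa4 was 1461, 1524 and 1775 against 1872, 3479 and 19825, the third member without overlap, a difference of -1.27 ± 0.38 (SE, limma adjusted p = 0.0091). Ndufb3, a small membrane arm subunit, was 843, 827 and 741 against 836, 1246 and 1803. Its difference was -0.59 ± 0.19 (SE, limma adjusted p = 0.015), and 2 of the 3 tumors were below all others. Each call of Ndufs6 and Uqcr11 held when any 1 of the 3 tumors was left out. Ndufa4 did not pass without PLK2null-732 (limma adjusted p = 0.053), and Ndufb3 did not pass without PLK2null-733 (0.052) or PLK2null-743 (0.090).

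Ndufs5, a membrane arm subunit on the side of the intermembrane space, rose. It was 1542, 1290 and 1484 in the 3 tumors and 644, 1010 and 1354 in the others. The difference was 0.55 ± 0.17 (SE, limma adjusted p = 0.010), with 2 of 3 tumors above all others. It did not pass without PLK2null-732 (limma adjusted p = 0.072) or PLK2null-743 (0.057). Ndufs6, Uqcr11 and Ndufa4 were thus among the genes that fell in both comparisons. The genotype call of Ndufs6 was lost after correction for length and GC content (limma adjusted p = 0.25) and without the 3 libraries highest in skeletal muscle genes (0.062). The claudin-low call of Ndufa4 was lost without PLK2null-732 (0.053). Ndufs5 fell with genotype and rose here. All 28 PLK2null tumors enter both comparisons, which therefore share samples.

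No complex II subunit passed. Sdhb was 2522, 2562 and 2420 against 904, 1322 and 2994, with a difference of 0.68 and an interval from 0.03 to 1.33 that is not adjusted for the number of genes (limma adjusted p = 0.091). Sdha, Sdhc and Sdhd differed by -0.11, -0.29 and -0.12. The core subunits of complex I lay between -0.22 (Ndufs7) and 0.48 (Ndufv2), and none passed. The largest difference that did not pass was that of Ndufa5, at -1.25, whose standard error was 0.79.

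**Figure D4:**
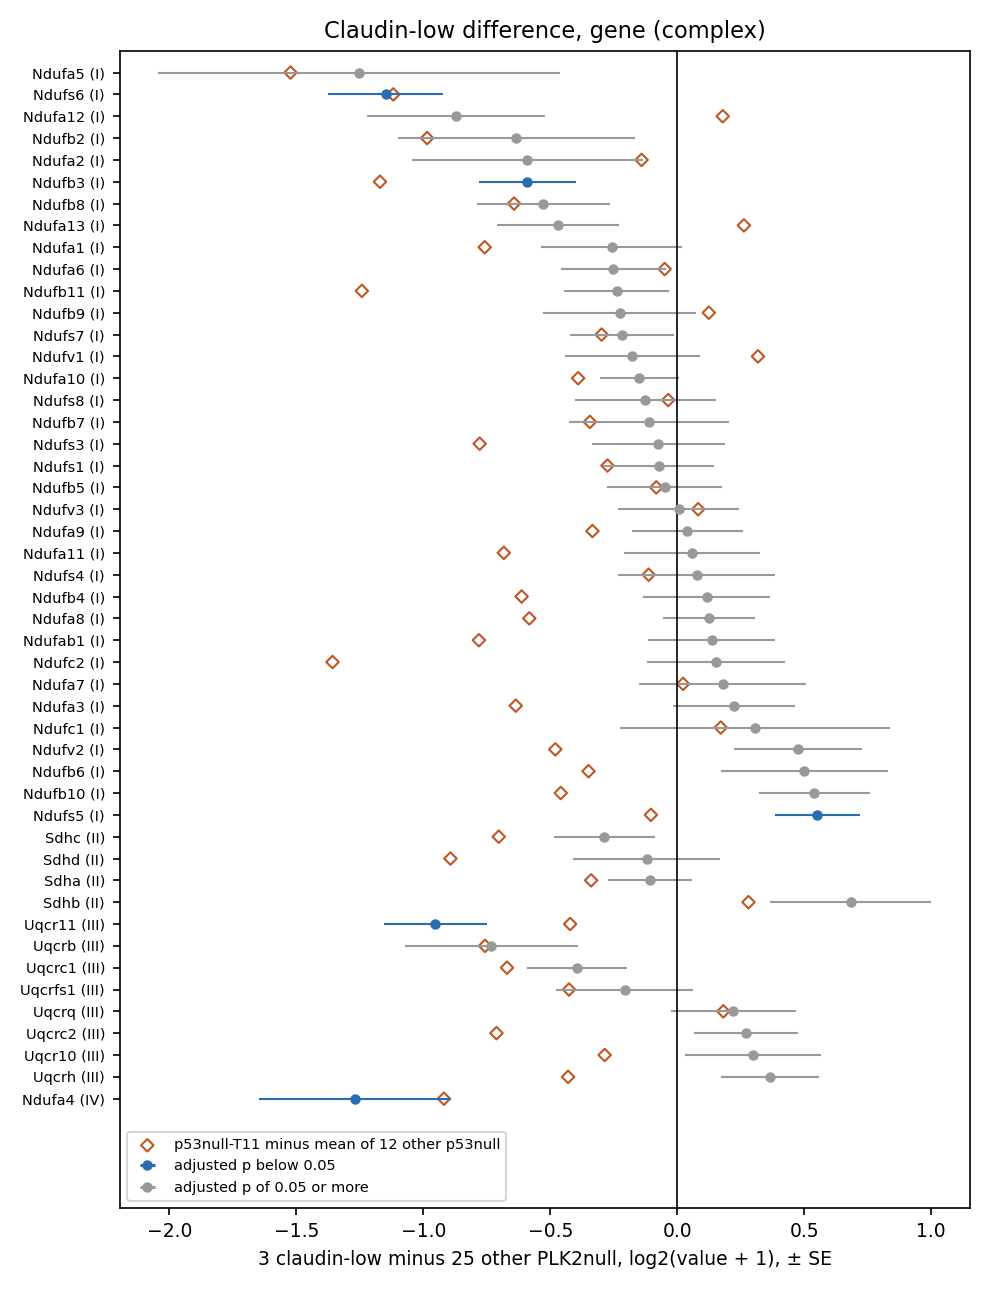
Difference between 3 claudin-low and 25 other PLK2null tumors for 48 of the 49 members, grouped by complex, with bars for standard errors. The horizontal axis is in log2(value + 1). Blue points passed an adjusted p of 0.05 and grey points did not. Orange diamonds give p53null-T11 minus the mean of the 12 other p53null tumors, without replicate. Of the 5 blue points, 4 lie below 0 and Ndufs5 above.

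The claudin-low tumors carried little epithelial RNA. All 6 epithelial markers were lower, and their summed value was 45.7 to 291 in the 3 tumors and 13539 to 119162 in the others. All 6 endothelial markers (165585 to 186496 against 2572 to 78025), 6 T cell markers (980 to 1889 against 63.3 to 1856), 6 B cell markers (827 to 1093 against 10.8 to 5612) and 5 tested red blood cell markers (94971 to 351849 against 491 to 21535) were higher. Of 4 tested white adipocyte markers 1 was higher (sum of 99138 to 124741 against 227 to 52149), and 3 of 6 fibroblast markers were lower. The upper ends of the endothelial, red blood cell and white adipocyte sums of the 25 others, and the lower end of the epithelial sum, are those of PLK2null-7763. Without it these ends were 7743, 7102, 5411 and 34899, and 4 members were lower and 2 higher. The shares of all genes without this tumor are not given here. Of 6 macrophage markers 1 was higher and 1 lower, as of 4 tested brown adipocyte markers, and 1 of 6 skeletal muscle and 1 of 6 proliferation markers were lower. The part of these cells in the differences of Ndufa4, Ndufs6, Uqcr11, Ndufb3 and Ndufs5 was not tested. Ndufa4l2, the paralog of Ndufa4 that is known to be induced by hypoxia, was 1668, 1418 and 1662 in the 3 tumors, above the 74.5 to 693 of the others, a difference of 3.05. Cox4i2, a lung and hypoxia isoform of Cox4, was 1116, 1015 and 823 against 11.7 to 820, a difference of 4.44. Of 5 tested paralogs and tissue isoforms 2 were higher, beside 20.2% of all genes. Neither hypoxia nor the part of other cell types in these values was tested. Ppargc1a, a coactivator of mitochondrial biogenesis, was at or under the 3-fragment floor in all 3 tumors and 23.6 to 633 in the others.

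Other mitochondrial lists were read in this comparison too, beside the 17.1% of all genes that were lower and the 20.2% that were higher. Complex IV genes fell in 4 of 11, led by Ndufa4 and Cox8a (-0.77), and complex V genes in 2 of 15 (Atp5c1, -0.73, and Atp5d, -0.72). Of 13 complex I assembly factors 3 fell, led by Ndufaf2 (-1.18) and Ndufaf1 (-0.63), and Ecsit rose (1.06). Sdhaf1 rose (0.66) among the complex II factors, and Uqcc1 (-0.92) and Bcs1l (-0.46) fell among those of complex III. Of 13 citric acid cycle enzymes Idh3a fell (-1.01) and Dlst rose (0.72). Coq4 fell (-1.09) among 11 genes of coenzyme Q synthesis. Of 11 genes of the outer membrane, import or mitochondrial mass 3 fell, led by Hspd1 (-0.94) and Hspa9 (-0.78), chaperones of the matrix. Of the 12 regulators Gabpb1 rose (0.55) and 4 fell, Ppargc1a and Polrmt (-0.61), the mitochondrial RNA polymerase, among them.

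T11 is the 1 claudin-low tumor among the p53null tumors and has no replicate. Of the epithelial markers, Epcam (81.4), Cdh1 (61.9), Cldn3 (19.9) and Cldn7 (13.8) were the lowest of the 13 p53null tumors, whereas Krt8 (11057) and Krt18 (22508) were not near 0. Other marker sums of T11 lay far from the 3 claudin-low PLK2null tumors. They were 6876 endothelial (165585 to 186496 in those 3), 423 white adipocyte (99138 to 124741) and 3635 red blood cell (94971 to 351849). The fibroblast sum was 225122 against 14888 to 56137. T11 lay inside their range in the macrophage (11649) and proliferation (16259) sums. Its respiratory chain level was 0.12, and 38 of 49 members were below the median of the other 12 p53null tumors. It had the lowest of the 13 values in 11 members, Ndufs6 (984), Ndufb3 (687), Ndufc2 (863) and Ndufs3 (1680) among them. The shares of all genes below that median, or lowest in T11, are not given here. The Ndufa4 value of T11, 3145, was the second lowest, and its Uqcr11 value of 2201 and Ndufs5 value of 1565 lay inside the range. The difference between the claudin-low effects of the 2 genotypes was tested with an interaction term in limma. No member passed, 4 had an unadjusted p below 0.05, and 9.97% of all genes passed. The lowest adjusted p among the members was 0.074, for Ndufc2, which differed by 0.15 between claudin-low and other PLK2null tumors and was the lowest of 13 in T11.

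Members were compared with each other by Pearson's r of log2(value + 1) over the 41 tumors, as a description. The tumors share genotype, and r over all tumors contains the difference between genotypes. Values of r for pairs of other genes are not given here, so r cannot show a likeness particular to the members. Over the 1176 pairs of members the median r was 0.54, and 106 pairs were negative. Within the 28 PLK2null tumors the median was 0.28, with 391 negative pairs, and within the 13 p53null tumors 0.43, with 74. The median was 0.54 within complex I, 0.59 within complex II, 0.53 within complex III and 0.58 between complexes I and III. Within the PLK2null tumors these medians were 0.24, 0.59, 0.19 and 0.32, and within the p53null tumors 0.44, 0.23, 0.48 and 0.44. Ndufs3 was most like the rest, with a median r of 0.74, followed by Ndufs8 and Ndufa2 (each 0.73). Ndufa12 was least like the rest, at -0.35, followed by Uqcrb (-0.02) and Ndufa5 (0.07). The highest r was that of Ndufa2 and Ndufs4 (0.92) and the lowest that of Ndufa12 and Ndufs4 (-0.62).

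The members Ndufc1 and Ndufa12 were opposite among the PLK2null tumors. The 12 lowest values of Ndufc1, from 159 to 426, belonged to PLK2null-1988, PLK2null-7753, PLK2null-1987, PLK2null-1989, PLK2null-1985, PLK2null-1981, PLK2null-1984, PLK2null-7750, PLK2null-1986, PLK2null-7764, PLK2null-1977 and PLK2null-1980. In the other 16 PLK2null tumors Ndufc1 was 514 to 1157. The same 12 tumors had the 12 highest values of Ndufa12, from 1127 to 1736, above the highest p53null value of 1012. These tumors were singled out after their values were seen, and no test was made. The labels do not say which of these 12 tumors share a founder, so they may not be 12 independent observations. Ndufs4 was 548 to 970 in these 12 tumors and 959 to 1643 in the other 16 PLK2null tumors.

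Single tumors stood apart for single members, in some cases together with genes beside them on the chromosome. Ndufa5, an accessory subunit of the matrix arm, lies on chromosome 6 from 24518666 to 24528013 (GRCm38, minus strand). It was 10059, 10068, 10989 and 9137 in PLK2null-7750, PLK2null-1984, PLK2null-1985 and PLK2null-1986 and 26249 in p53null-2208L. In the other 36 tumors it was 475 to 3961, with a median of 1074. Wasl, 0.086 Mb away, which promotes actin branching, was 32834 to 65746 in these 5 tumors and 1143 to 11949 in the other 36. Tmem229a, 0.42 Mb away, was 810 to 2181 against 1.73 to 526. Of 6 tested genes within 1 Mb, all 6 were at least 2-fold above their medians in each of the 4 PLK2null tumors and 4 were in p53null-2208L. The medians of Hyal5 (0), Slc13a1 (0.44) and Lmod2 (1.97) were near 0. These genes passed the filter on the mean through tumors with high values, so the count of 6 includes genes kept by such values. In the 4 PLK2null tumors Hyal5 was 169 to 262 and Slc13a1 only 4.02 to 10.1. The labels do not say whether these 4 tumors share a founder, so they may not be 4 independent observations. PLK2null-1984 and PLK2null-7750 were the closest pair of all libraries.

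Sdhc, on chromosome 1 from 171127165 to 171150603 (GRCm38, minus strand), was 12477 in p53null-2225L and 1506 to 5143 in the other tumors. Genes near it were highest in the same tumor, among them Tomm40l (5838, median of 756) and Nr1i3 (114, median of 16.7), whereas Fcgr3 (576, median of 1013) was not. Of 51 tested genes within 1 Mb of Sdhc, 22 were at least 2-fold above their medians and 8 at least 2-fold below.

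Ndufa4 was 19825 in PLK2null-1973 and 9511 in PLK2null-1974. Phf14, its nearest tested neighbour, had its highest value in PLK2null-1973 (6587, median of 1455). Ndufb6 was 4993 in p53null-10151, where 13 of 18 tested genes within 1 Mb were at least 2-fold above their medians. Ndufb5 was 6366 in the library labelled p53null-7435, where 7 of 10 were. Ndufa11 was 5684 in p53null-5317, with 18 of 55 neighbours at least 2-fold above and 3 at least 2-fold below. The 2 low values of this size were those of Ndufc1 in PLK2null-1988 and PLK2null-7753, each with 15 tested neighbours, of which 1 was at least 2-fold below its median. These tumors were found by a difference of at least 2 in log2(value + 1) from the gene's median. The share of all tested genes as far above their medians in the same tumor is not given here. The counts of neighbours, those for Ndufa5 and Sdhc included, therefore have no baseline. Gene copy number was not measured.

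**Figure D5:**
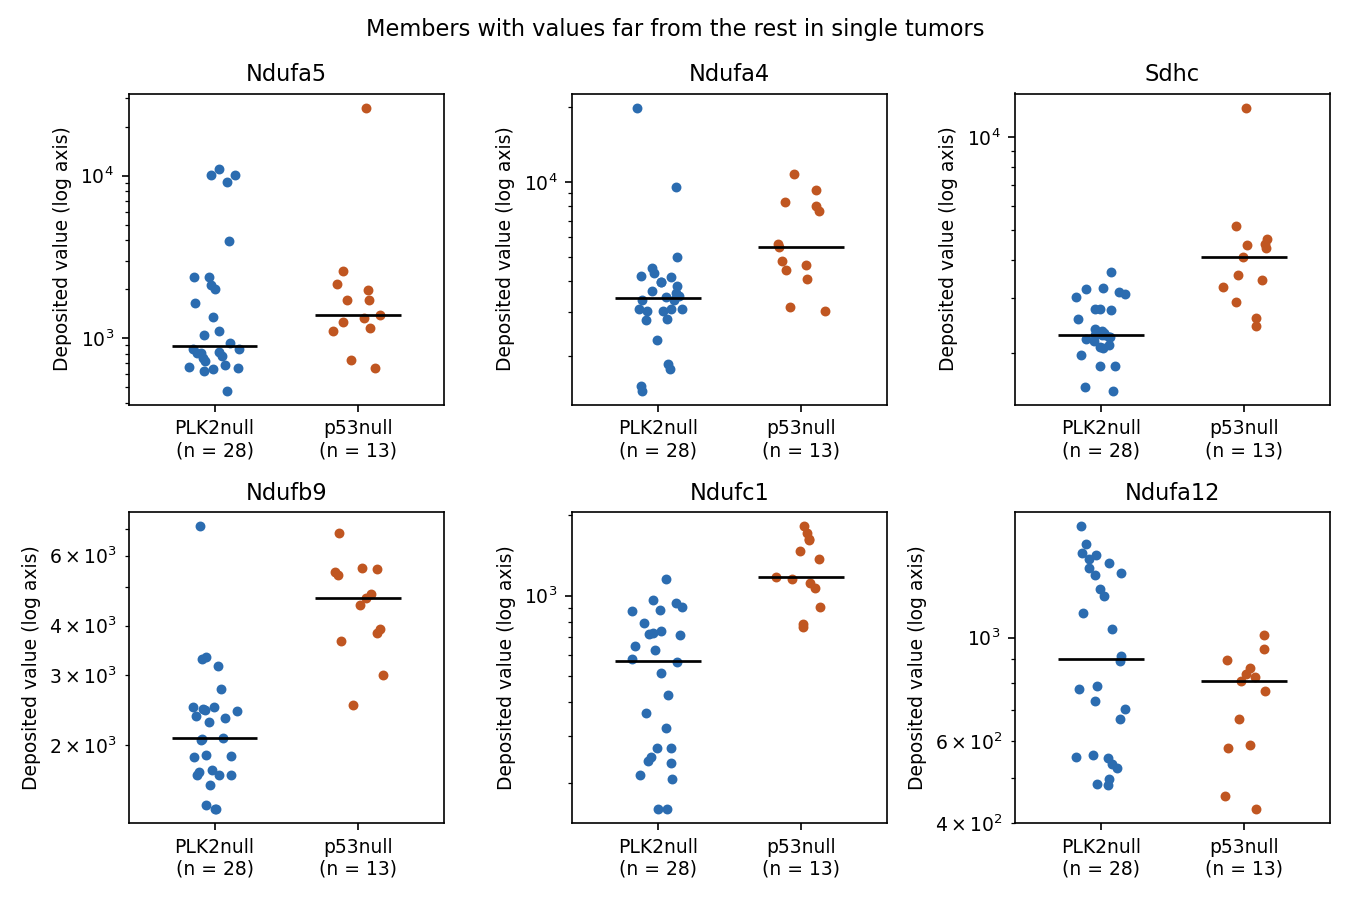
Values of 6 members in each tumor, by genotype (28 PLK2null and 13 p53null tumors). The vertical axis is the deposited upper-quartile normalized value on a log axis, points are tumors and black lines are group medians. Ndufa5 shows 4 PLK2null tumors from 9137 to 10989 and p53null-2208L at 26249, Sdhc shows p53null-2225L at 12477 and Ndufa4 shows PLK2null-1973 at 19825. Ndufc1 and Ndufa12 show a wide spread in the PLK2null tumors.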

How the data were processed

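RNA was extracted from whole tumors with a column kit, and libraries were made from mRNA and read from both ends (50 bases each) on Illumina HiSeq instruments. The authors aligned reads to mm10 with STAR (2.7.6a), estimated gene counts with Salmon (1.4.0) and deposited upper-quartile normalized values, a linear signal. The submitters' processing notes also name Picard (2.22.4) and SAMtools. The gene annotation is not given in the sources used here. Genotype came from the labels. The paper's text names PLK2null-743 and T11 as claudin-low, PLK2null-732 and PLK2null-733 came from the definition given for the comparison, and the primary tumors were read from the paper's display of tumor latency. All 41 columns were matched by name.

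The values are not counts, so tests used limma 3.58.1 (R 4.3.3) on log2(value + 1). Genes averaging 10 or more over the tumors compared were kept, p-values were adjusted over them (Benjamini-Hochberg) and the threshold was 0.05. Fold changes are on this scale, which understates changes of genes with low values. Differences are PLK2null minus p53null, or claudin-low minus other. Depth was inferred from the step of low values, and floors of 3 fragments cover counting error only. Positions and transcript lengths came from GENCODE vM21 (GRCm38), in which all 49 members matched a single gene, and promoters from RefSeq. No pair of libraries agreed within sampling noise (closest, PLK2null-1984 and PLK2null-7750, with a median chi-square of 4.30 per gene). Reads that a subunit shares with a processed pseudogene could not be told apart. TMM scaling factors were computed from their published formula. Scripts used Python 3.11.15, and tests were checked on simulated data.

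The members, gene lists and tests were chosen with earlier results of these data known. Values were given for the 3 largest differences of each complex among members that passed, for members that passed in both comparisons or did not overlap, for complex II and core subunits, and for the 2 largest in each direction of each mitochondrial list, and cell type lists were given by counts and summed levels. Alternatives were other pseudocounts, filters, scalings and sets of tumors. The values of 1 member are not reported here by name, though it stays in the counts.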

Additional observations from a re-analysis of the deposited data

Results flagged for a closer look

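In the 7 PLK2null tumors whose numbers are listed elsewhere as primary, the value of 1 tumor stood far from the other 6 (Dixon's test) in 6 of 49 members. Dixon's test was applied to the deposited values, in which high values stand out more than in log2(value + 1). Chance flags about 1 in 20 groups if values are normally distributed, which was not checked. The share of all genes flagged is not given here. Ndufa5 was 10059 in PLK2null-7750 and 725 to 3961 in the others. Ndufb9 was 7115 in PLK2null-7763 and 1384 to 2474 in the others. Ndufb7 was 2922 in PLK2null-7750 and 877 to 1751 in the others. Sdha was 6422 and Uqcrc1 5719 in PLK2null-7748, against 3053 to 4362 and 2630 to 3544. The one low value was that of Ndufb4 in PLK2null-7753, 228 against 318 to 365.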

How the results depend on the processing

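Across 13 alternatives the number of members that fell between the genotypes ran from 31 to 45, beside 41 as reported, and none rose. The lowest, 31, came with the 7 PLK2null tumors listed elsewhere as primary, a smaller group. There 970 of 17050 genes fell, beside 2627 of 17208 in all tumors. For single members no difference changed sign under any of these alternatives. Of the single member values, 608 stayed on their side of the threshold, 14 crossed to pass and 15 no longer passed.

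In the claudin-low comparison 5 members passed. Leaving out each claudin-low tumor in turn left 3 to 4, with 3 after PLK2null-732 or PLK2null-743 was left out. Ndufs5 then no longer passed (adjusted p of 0.072 and 0.057), Ndufb3 did not pass without PLK2null-733 (0.052) or PLK2null-743 (0.090), and Ndufa4 did not pass without PLK2null-732 (0.053). Ndufs5 also did not pass with T11 added and a genotype term (0.085). Correction for transcript length and GC content, added after seeing the data, gave 8, of which 5 were higher and 3 lower, and Ndufb3 did not pass (0.052). In the same fit 3588 of all 16530 genes were higher and 2669 lower. The cause of the change in calls was not tested. The other alternatives gave 5 to 7. For the alternatives other than this correction, the shares of all genes that passed are not given here.

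No paired analysis was possible because the labels give the genotypes no shared replicate numbers. Depth did not limit the members, whose lowest value, 159, was far above the floors of 1.16 to 2.45. The tag in the p53null titles and genotype cannot be told apart, and tumors that share a founder would make p-values too small.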
